A study of Cavia porcellus with 30 samples.

Results

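Kidney RNA was compared between 2 groups that held 10 of the 30 guinea pigs in this experiment, namely 5 animals given the low dose of mercuric chloride (1.00 mg/kg HgCl2) and 5 given vehicle (1 ml/kg saline), all sampled 9 h after dosing. The animals were chosen by the agent and time point in their labels. They are named here by the number that ends their label, 33 to 37 for the low dose and 31, 32, 58, 59 and 60 for vehicle. All were male Hartley guinea pigs, bought at a few weeks of age and acclimated, and all carried a jugular catheter, were injected intraperitoneally in the morning, had no food afterwards and were sampled in the late afternoon. The whole frozen kidney of each animal was powdered before poly-A RNA was sequenced in paired reads. The other 20 animals had the high dose (1.50 mg/kg) at 9 h or belonged to the 3 groups sampled at 33 h.

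Mercuric chloride is a classical nephrotoxicant. Inorganic mercury is taken up from the blood and the filtrate mainly by the epithelial cells of the proximal tubule, where it binds the thiol groups of glutathione, metallothionein and many enzymes. The early injury is described as oxidative stress and loss of function of these cells, and necrosis of the tubule follows at higher exposure.

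The measured unit was the transcript, as listed in the Ensembl guinea pig transcriptome, with an estimated count from Kallisto, a program that assigns reads to transcripts and divides those that match several. Counts are therefore uncertain where a transcript closely resembles another one. The files hold 25824 transcript identifiers without gene names, and 0 of them could be matched to a symbol in the gene table used here. The changes below are therefore given by expression level, transcript length and animal, most transcripts are named by their length in bases, and the tissue was not checked with marker genes. In RNA of a whole kidney, fewer cells of a type and less RNA per cell cannot be told apart.

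Total estimated counts were 27319444 to 36072327 per animal with vehicle and 23241260 to 28844458 with the low dose. A count was found for 23454 transcripts in at least 1 of the 10 animals, and 19729 had enough counts to be tested. In the vehicle animals numbered 58 and 59, 1 transcript took 4.76% and 13.7% of the counts, whereas in the other 8 animals the leading transcript took 1.81% to 2.04%. The scaling factor that balances libraries (TMM) was 0.925 and 0.852 in these 2 animals and 1.00 to 1.08 in the others. The mean fragment length implied by the files was 202 to 214 bases in the vehicle animals and 213 to 222 bases in the low-dose animals, and its part in the results was not tested.

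Of the 19729 transcripts, 4550 (23.1%) differed between low dose and vehicle at a Benjamini-Hochberg adjusted p of at most 0.1 in edgeR's quasi-likelihood test, and are referred to as called. The 2312 that were higher made up 11.7% of those tested and the 2238 that were lower 11.3%. This even split depended on the scaling. With the total count alone in place of TMM, 3344 were higher and 859 lower, and the median log2 fold change of all tested transcripts moved from 0.02 to 0.13. On the deposited TPM values, which are also scaled to a fixed total, limma called 3135 higher and 977 lower. Directions below are relative to TMM unless stated.

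Most of the called changes were small. The median size of a called change was 0.42 on the log2 scale, and the middle of the distribution ran from 0.29 to 0.70 (quartiles). Of the called transcripts, 80.4% changed at least 1.2-fold, 32.4% at least 1.5-fold, and 12.9% at least 2-fold. The 589 that were called and changed at least 2-fold made up 2.99% of all tested, with 397 higher and 192 lower. At 4-fold or more there were 141 higher and 42 lower, and at 16-fold or more 53 higher and 18 lower. Rises thus outnumbered falls more among the larger changes than over all called transcripts, and the median change was 0.46 for those higher and 0.39 for those lower. These tallies use fitted changes. Of the called rises, 27 had at most 3 counts in every vehicle library, and of the called falls 17 had at most 3 in every low-dose library. For such transcripts the counts can support only a lower bound, in some cases below 16-fold.

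The share of transcripts called rose with expression level. Level here is the mean log2 CPM (the count scaled to a common library total) over the 10 animals, a measure of how many counts support a transcript and not of molecules per length. Below a log2 CPM of 0, 173 of 3175 transcripts (5.45%) were called. The share was 10.6% between 0 and 2, 20% between 2 and 4, 31.0% between 4 and 6, and 40.9% between 6 and 8. At 8 and above, 239 of 514 transcripts (46.5%) were called. The median standard error of the log2 fold change went from 0.81 in the lowest bin to 0.08 between 6 and 8 and 0.10 in the highest bin.

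The size of called changes went the other way. Where the standard error is large, only a large change can be called. The median size of a called change was 2.90 on the log2 scale below a log2 CPM of 0, 0.96 between 0 and 2, 0.52 between 2 and 4, 0.35 between 4 and 6 and 0.33 between 6 and 8. In the highest bin it was 0.45, above that of both bins beneath it. A 2-fold change was reached by 95.4% of the called transcripts in the lowest bin but by 4.32% between 4 and 6, 5.36% between 6 and 8, and 11.3% (27 of 239) at 8 and above. A further 909 transcripts had a fitted change of at least 2-fold and were not called, and 780 of these lay in the lowest bin. Across the 4550 called transcripts, size and level had a Spearman correlation of -0.41, and across all 19729 it was -0.34. Transcripts share the same 10 libraries and are not replicates, so these correlations are descriptions.

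**Figure D1:**
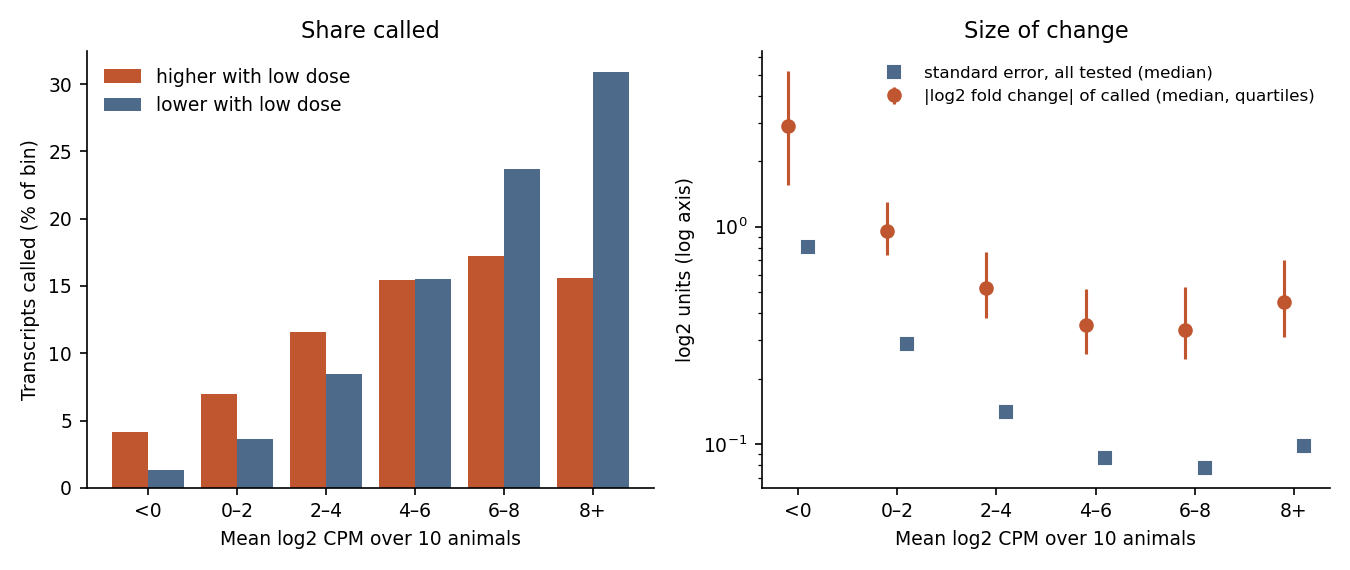
Left, percent of the transcripts in each bin of mean log2 CPM over the 10 animals that were called higher (orange) or lower (blue) with the low dose. Right, on a log axis, the size of the called log2 fold changes (points, median with quartiles) and the median standard error over all tested transcripts (squares). The share called rises from 5.45% to 46.5% while the median size of called changes falls from 2.90 to 0.33 before it reaches 0.45 in the highest bin.

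Direction also shifted with level, steadily so on the TMM scale. With TMM, 75.7% of the called transcripts in the lowest bin were higher with the low dose (131 higher, 42 lower). The share was 65.8% between 0 and 2, 57.7% between 2 and 4, 49.9% between 4 and 6, and 42.1% between 6 and 8. At 8 and above it was 33.5%, with 80 higher and 159 lower. The median log2 fold change of all transcripts, called or not, moved from 0.19 in the lowest bin to -0.05 between 6 and 8 and -0.12 at 8 and above. A transcript with few counts could pass the filter through the counts of a single group, such as the low-dose animals. The part of that selection in the excess of rises at low levels was not tested. The majority of falls in the top bin depended on scaling, since with the total count alone 108 were higher and 78 lower there, and with TPM 105 were higher and 84 lower. In both of these alternatives the share of rises was still lower in the top bin than in the bottom bin, at 58.1% against 82.3% with the total count and 55.6% against 79.2% with TPM. From the lowest bin up to a log2 CPM of 6, however, it was 82.3%, 81.0%, 82.1% and 82.2% with the total count. With TPM it was 79.2%, 77.0%, 80.4% and 78.5%. The decline below a log2 CPM of 6 was thus found with TMM and not with these 2 scalings.

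The same tilt was measured as 1 value per animal, the slope of its log2 CPM, relative to the mean of the 10 animals, on expression level. This used the 15237 transcripts that averaged a log2 CPM of 1 or more. The slopes in the vehicle animals were 0.0065 (animal 31), -0.0048 (32), 0.0237 (58), 0.0242 (59) and 0.0069 (60). In the low-dose animals they were -0.0030 (33), -0.0058 (34), -0.0192 (35), -0.00053 (36) and -0.0278 (37). The groups overlapped only through animal 32. The signs follow from the centring on these 10 animals and carry no information of their own. Centred on the 15 animals at 9 h, low-dose animal 36 was at 0.0064, above vehicle animals 31 (0.0057) and 32 (-0.0054). The means were -0.0113 ± 0.0117 and 0.0113 ± 0.0125 log2 units per log2 unit of level (SD, n = 5 each), which differed at a two-sided exact permutation p = 0.0238 before adjustment and p = 0.0714 adjusted over 6 tests. Without animal 59 the difference was -0.0166 (exact permutation p = 0.0635) and without animal 60 it was -0.0212 (exact permutation p = 0.0556). The 2 vehicle animals with the steepest slopes, 58 and 59, were also those in which 1 transcript took an unusual share of the counts. Against the high dose at 9 h, the mean slope of the low-dose animals was -0.0068 and that of the high-dose animals -0.0040 (exact permutation p = 0.69).

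The share called varied less with transcript length than with level. The share called was 18.5% below 500 bases (118 of 638), 19.4% from 500 to 1000, 23.3% from 1000 to 2000, 24.8% from 2000 to 4000 and 22.5% at 4000 bases and above, against 23.1% over all. On the deposited TPM values, where limma was used, the order of the ends was the reverse, with 20.1% called in the shortest bin and 16.6% in the longest. Longer transcripts also held more counts, with a median log2 CPM of 1.51 in the shortest and 4.50 in the longest bin. Within levels the order depended on the level. Between a log2 CPM of 4 and 6, the share called was 37.3% below 500 bases, 35.0%, 34.9% and 31.6% in the next 3 bins, and 26.1% at 4000 and above. Between 6 and 8 it was 47.6% in the shortest bin (20 of 42), 46.8%, 48.6% and 41.7% in the next 3, and 35.2% in the longest (350 of 993). At these 2 levels, a smaller share of the longest transcripts than of the shortest was called. From short to long, the shares were 10.9%, 5.46%, 5.03%, 4.17% and 6.33% below a log2 CPM of 0, and 6.12%, 8.85%, 13.0%, 11.3% and 7.68% between 0 and 2. Between 2 and 4 they were 21.4%, 20.3%, 19.5%, 22.1% and 17.3%. The longest bin was thus below the shortest at these levels too, except between 0 and 2, and the bins between them followed no steady order. At 8 and above, with few transcripts below 500 bases, the share was 25.5% (12 of 47) from 500 to 1000 bases and 49.2%, 53.6% and 41.7% in the longer bins.

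Over all levels together, called rises were larger among the shortest transcripts. The median called change was 0.49 on the log2 scale below 500 bases and 0.40 at 4000 and above. In the shortest bin, the 60 transcripts that were higher had a median change of 0.73 and the 58 that were lower 0.38. A 2-fold change was reached by 27.1% of the called transcripts below 500 bases, 17.1% from 500 to 1000, 15.2% from 1000 to 2000, 11.2% from 2000 to 4000 and 10.5% in the longest bin. Of the 118 called transcripts below 500 bases, 23 had a mean log2 CPM below 0, and all 23 of those were higher, with a median change of 3.92. At this level a transcript could pass the filter through the low-dose group alone, and the part of that selection was not tested. Below a log2 CPM of 0, the median called change at 4000 bases and above was 6.09, larger than that of the shortest. From a log2 CPM of 0 to 8, the called changes of the shortest transcripts were smaller than or close to those of the longest. The median change was 0.69 below 500 bases and 0.96 at 4000 and above between a log2 CPM of 0 and 2, 0.40 and 0.56 between 2 and 4, 0.36 and 0.35 between 4 and 6, and 0.26 and 0.33 between 6 and 8. Over all tested transcripts, the signed log2 fold change and length had a Spearman correlation of 0.0055.

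**Figure D2:**
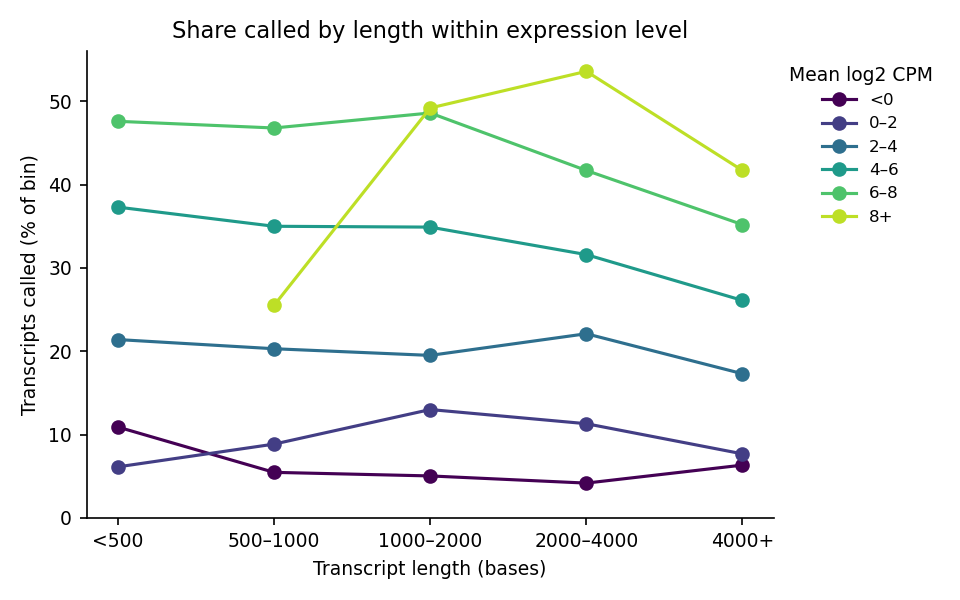
Percent of transcripts called in each bin of transcript length (bases), with 1 line for each bin of mean log2 CPM over the 10 animals. Between a log2 CPM of 6 and 8 the share goes from 47.6% below 500 bases to 35.2% at 4000 and above, and between 4 and 6 from 37.3% to 26.1%.

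Per animal, the slope of log2 CPM on log2 length was -0.0014 (31), -0.0012 (32), -0.0245 (58), 0.0016 (59) and 0.0018 (60) with vehicle. With the low dose it was -0.0100 (33), 0.0146 (34), 0.0160 (35), 0.0034 (36) and -0.0003 (37). Animal 58 stood below the other 9, and low-dose animals 33 and 37 lay inside the vehicle range while 34, 35 and 36 lay above it. The means were 0.0047 ± 0.0108 with the low dose and -0.0047 ± 0.0112 with vehicle (SD, n = 5 each), a difference that was not larger than the spread between animals (exact permutation p = 0.19, adjusted p = 0.381). On the TPM scale, the difference was -0.0013, of the opposite sign (exact permutation p = 0.873).

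The largest rises were found both among transcripts with few counts and among those with many. The largest fitted change among called transcripts that averaged a log2 CPM of 1 or more and did not overlap between the groups was that of ENSCPOT00000003291.3 (1265 bases). Its CPM was 0.876 (31), 0.525 (32), 1.30 (58), 0.151 (59) and 0.659 (60) with vehicle. In the low-dose animals its CPM was 2.26 (33), 292 (34), 2.50 (35), 2.69 (36) and 10.1 (37). The size of this rise rested on animal 34. The log2 fold change was 6.45 ± 1.73 (SE, edgeR adjusted p = 0.036), and without animal 34 it was 2.64 (edgeR adjusted p = 0.0234). It was no longer called with vehicle animals 58 to 60 as the only controls (edgeR adjusted p = 0.133), and DESeq2 gave it no adjusted p. With all 30 libraries scaled together, it was at 0.995 to 1.95 CPM with the high dose at 9 h. These high-dose animals all lay below the low-dose animals (2.33 to 302 CPM) and overlapped with vehicle (0.157 to 1.35 CPM). At 33 h it was at 1.34 to 53.4 CPM with vehicle and 1.37 to 344 CPM with the low dose. The high-dose animals averaged 2.88 CPM at 33 h. What the high values in single groups come from was not tested.

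ENSCPOT00000040875.1 (4019 bases) had the smallest p of all transcripts tested. Its CPM was 44.0, 33.4, 49.5, 57.4 and 69.9 in vehicle animals 31, 32, 58, 59 and 60, and 1260, 1370, 1350, 1810 and 1420 in low-dose animals 33 to 37. The lowest low-dose animal lay far above the highest vehicle animal. The means were 1440 ± 216 and 50.9 ± 13.8 CPM (SD, n = 5 each), with a log2 fold change of 4.82 ± 0.21 (SE, edgeR adjusted p = 2.5e-06). With all 30 libraries scaled together, the low-dose animals averaged 1500 ± 228 CPM and the high-dose animals 1500 ± 322 CPM at 9 h. The 33 h animals averaged 384 ± 152 CPM on the low dose, 383 ± 121 CPM on the high dose and 50.4 ± 12.7 CPM on vehicle (SD, n = 5 each).

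A transcript of 678 bases rose from 91.3 ± 32.0 to 2270 ± 649 CPM. Its values were 56.5, 67.7, 113, 134 and 85.1 CPM with vehicle and 1500, 1740, 2440, 3090 and 2600 CPM with the low dose, and its log2 fold change was 4.64 ± 0.30 (SE, edgeR adjusted p = 2.71e-05). The other 3 of the 6 largest rises, of 3109, 549 and 447 bases, had log2 fold changes of 4.45, 3.79 and 3.76. These 3 and the transcript of 678 bases were lower in animals 33 and 34 than in animals 35 to 37. The transcript of 549 bases was at 1.65 and 1.59 CPM in animals 33 and 34, against 14.1, 13.2 and 15.4 CPM in animals 35 to 37 and 0.439 to 1.01 CPM with vehicle. The transcript of 3109 bases was at 5.87 and 7.08 CPM in animals 33 and 34 and at 19.0, 28.1 and 23.3 CPM in animals 35 to 37.

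The largest fall under the same conditions of level and overlap was that of ENSCPOT00000008461.3 (1449 bases). It was at 45.5 (31), 126 (32), 246 (58), 176 (59) and 149 (60) CPM with vehicle. With the low dose it was at 5 (33), 39.4 (34), 0.593 (35), 10 (36) and 9.86 (37) CPM. The groups did not overlap, although animals 31 and 34 were close to each other. Its mean went from 148 ± 73.0 to 13.0 ± 15.3 CPM (SD, n = 5 each), and the log2 fold change was -3.53 ± 0.80 (SE, edgeR adjusted p = 0.0237). Without animal 34 it was -4.54 (edgeR adjusted p = 0.00808).

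A transcript of 5579 bases was at 18.6, 26.8, 68.9, 73.6 and 59.3 CPM with vehicle and at 8.12, 13.4, 3.98, 4.52 and 1.99 CPM with the low dose, a log2 fold change of -2.96 ± 0.54 (SE, edgeR adjusted p = 0.0134). The other 4 of the 6 largest falls, of 3765, 1864, 2100 and 1677 bases, had log2 fold changes of -2.42 to -2.19. For the transcript of 3765 bases, animal 34 was again the highest low-dose animal, and its log2 fold change was -2.42 with and -3.40 without that animal. With vehicle animals 58 to 60 as the only controls it was -2.16 and no longer called (edgeR adjusted p = 0.124). The last of these, of 1677 bases, was at 13.9 and 10.6 CPM in animals 33 and 34 and at 1.58, 0.673 and 0.963 CPM in animals 35 to 37, against 18.8 to 29.3 CPM with vehicle. Its log2 fold change was -2.19 (edgeR adjusted p = 0.0669), and it was no longer called in 7 of 16 alternatives, with vehicle animals 58 to 60 as the only controls (edgeR adjusted p = 0.128) and when any of animals 35, 36, 37, 58, 59 or 60 was left out (edgeR adjusted p of 0.106 to 0.131).

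**Figure D3:**
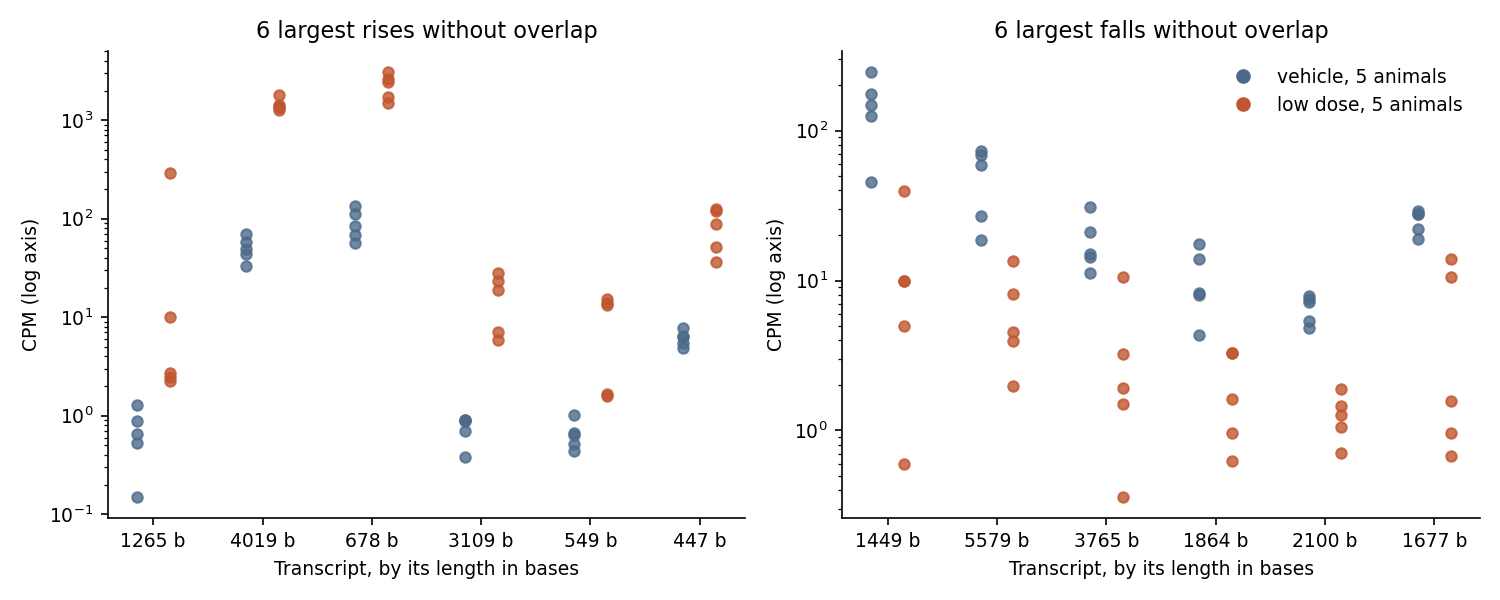
CPM on a log axis in each of the 5 vehicle (blue) and 5 low-dose (orange) animals for the 6 largest rises and 6 largest falls among called transcripts that averaged a log2 CPM of 1 or more and did not overlap between the groups, named by length in bases. For the transcripts of 4019 and 678 bases all low-dose animals lie far above all vehicle animals, whereas that of 1265 bases has 1 low-dose animal at 292 CPM and the others at 2.26 to 10.1 CPM.

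Other transcripts with high counts differed by smaller amounts. A transcript of 3616 bases was at 764 to 985 CPM in the vehicle animals and at 3120 to 4070 CPM in the low-dose animals, a log2 fold change of 2.02 ± 0.10 (SE, edgeR adjusted p = 4.84e-06). Those of 889 and 3961 bases rose by 2.05 and 1.81 on the log2 scale, from 141 ± 14.6 to 587 ± 52.2 CPM and from 258 ± 28.5 to 902 ± 68.1 CPM (SD, n = 5 each). These 3 and the transcript of 4019 bases had the 4 smallest p-values, and all 4 were rises. Of the 3 called rises with the highest mean CPM, the transcript of 2791 bases changed by 0.25, overlapped between the groups and was no longer called in 2 of 16 alternatives (adjusted p = 0.116 with limma on log2 CPM, and 0.159 in edgeR with vehicle animals 58 to 60 only). The transcript of 2068 bases rose by 0.63, from 1340 to 1580 CPM with vehicle to 1850 to 2720 CPM with the low dose.

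Of the called falls with the highest mean CPM, a second transcript of 678 bases was at 4920 to 5580 CPM with vehicle and 3070 to 4160 CPM with the low dose, a log2 fold change of -0.50 ± 0.10 (SE, edgeR adjusted p = 0.018). A transcript of 1935 bases fell by 0.51 on the log2 scale with overlap between the groups (edgeR adjusted p = 0.0646), and was no longer called in 6 of 16 alternatives. ENSCPOT00000025542.2 (2267 bases) was the transcript that took up to 13.7% of the counts. It was at 15600 (31), 19000 (32), 51400 (58), 161000 (59) and 18700 (60) CPM with vehicle. With the low dose it was at 8630 (33), 11300 (34), 18200 (35), 16200 (36) and 14400 (37) CPM. Vehicle animals 31, 32 and 60 overlapped with or lay close to the low-dose animals. The log2 fold change was -1.95 ± 0.64 (SE, edgeR adjusted p = 0.0658), and it was no longer called in 7 of 16 alternatives. Without animal 59 it was -0.92 (edgeR adjusted p = 0.144), without animal 34, 35, 36, 37 or 58 the edgeR adjusted p was 0.103 to 0.124, and with limma on log2 CPM the adjusted p was 0.171.

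Among transcripts with few counts, several were at or near 0 in every library of a group and higher in the other group. In the vehicle animals, 17 called transcripts had 0 counts in all 5 libraries, and in the low-dose animals 10 did. How many of all tested transcripts did so was not counted. A transcript of 938 bases had 0, 1, 0, 0 and 1 counts in vehicle animals 31, 32, 58, 59 and 60 and 89, 14, 28, 59 and 844 counts in low-dose animals 33 to 37. A transcript of 2937 bases had 0 counts in every vehicle library and 6 to 60 with the low dose, at least 8.83-fold higher. In the reverse direction, a transcript of 2994 bases had 9 to 32 counts with vehicle and 0 in every low-dose library, at least 6.11-fold lower. One of 5913 bases was at least 44.6-fold lower on the means, but its vehicle counts were 1, 268, 335, 1 and 90, so that 2 vehicle animals were near 0 as well. These bounds set 3 counts per library in place of 0 and cover counting error only. With all such transcripts at their bound, the median called change below a log2 CPM of 0 was 2.48 in place of 2.90, and over all levels it stayed at 0.42. Other groups did not always share these patterns, with all 30 libraries scaled together. With the high dose at 9 h, the transcript of 938 bases was at 0 to 23.5 CPM and that of 2937 bases averaged 0.288 CPM. The latter averaged 0.335 CPM in the 33 h vehicle animals. The transcript of 2994 bases averaged 0.553 CPM with the high dose and 0.692 CPM with vehicle at 9 h.

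The spread between animals was larger with the low dose than with vehicle on the TMM scale. The SD of log2 CPM over 5 animals had a median of 0.228 with the low dose and 0.184 with vehicle, and it was larger with the low dose for 60.0% of the tested transcripts. The difference grew with level. Below a log2 CPM of 0, the medians were 0.888 and 0.856, between 4 and 6 they were 0.147 and 0.114, and between 6 and 8 they were 0.138 and 0.0933. At 8 and above they were 0.170 and 0.111. The share of transcripts with the larger SD in the low-dose group went from 50.3% in the lowest bin to 72.1% between 6 and 8 and 71.0% at 8 and above. Over all transcripts the median log2 ratio of the SDs was 0.23, but it was -0.03 with the total count alone in place of TMM and -0.01 on TPM. A larger spread among the low-dose animals was thus found with TMM and not with these 2 scalings.

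**Figure D4:**
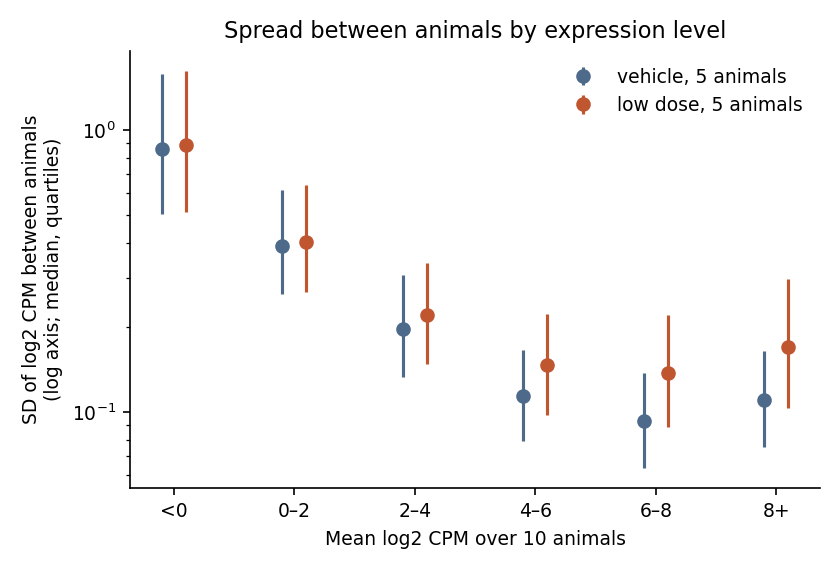
SD of log2 CPM (TMM-scaled) over the 5 vehicle (blue) and 5 low-dose (orange) animals, on a log axis, by bin of mean log2 CPM, with the median and quartiles over transcripts. The medians are close below a log2 CPM of 2 and differ most above 6, at 0.138 against 0.0933 between 6 and 8.

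As 1 value per animal, the median distance of its log2 CPM from the mean of the other 4 animals of its group was 0.113 (31), 0.124 (32), 0.111 (58), 0.129 (59) and 0.112 (60) with vehicle. With the low dose it was 0.178 (33), 0.156 (34), 0.129 (35), 0.175 (36) and 0.129 (37). Animals 33, 34 and 36 lay well above the highest vehicle animal, and animals 35 and 37 lay close to it. The mean distance was 0.153 ± 0.024 with the low dose and 0.118 ± 0.00813 with vehicle (SD, n = 5 each; exact permutation p = 0.0159, adjusted p = 0.0714). Without animal 31, 33, 58 or 60 the exact permutation p was 0.0635 to 0.0794, and with vehicle animals 58 to 60 only it was 0.0536. With the total count alone the difference was 0.0016 in place of 0.0355 (exact permutation p = 0.952), and on TPM it was -0.0048 (exact permutation p = 0.754). The high-dose animals at 9 h had a mean distance of 0.169 ± 0.0263 against 0.154 ± 0.0241 with the low dose over the same transcripts, within the spread between animals (exact permutation p = 0.341). With 5 animals in each group, these tests could not go below p = 0.00794 (exact permutation).

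The low-dose animals differed in how far they lay from the vehicle animals. Over the 15237 transcripts, 10 pairs of vehicle animals had a Pearson correlation of log2 CPM of 0.966 to 0.977 (median 0.969), 10 pairs of low-dose animals 0.951 to 0.977 (median 0.964), and 25 pairs between the groups 0.927 to 0.972 (median 0.947). Animals 33 and 34 were about as like the vehicle animals (median r of 0.963 and 0.965) as their own group (0.958 and 0.964). For both, r was highest with vehicle animal 31 (0.971 and 0.972) and lowest with vehicle animal 59 (0.955 and 0.960). Animals 35, 36 and 37 had a median r of 0.941, 0.931 and 0.939 with the vehicle animals and of 0.969, 0.964 and 0.967 with their own group. On the first principal component, which held 39.9% of the variance, the vehicle animals lay between -32.4 and -15.9, animals 33 and 34 at 1.2 and 3.83, and animals 35, 36 and 37 at 37.0, 46.7 and 39.1. On the second (11.6%), vehicle animals 31 and 32 lay at 12.5 and 18.9 and 58, 59 and 60 at -19.1, -23.7 and -2.14. Animals 31 to 34 have adjoining numbers. A difference that follows the numbers cannot be told apart from a difference in response between animals.

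Of the 4550 called transcripts, 2307 (50.7%) did not overlap between the groups. Over all tested transcripts, 1240 (6.29%) did not overlap with the low dose higher, and 1181 (5.99%) with the low dose lower. The overlap came from a few animals more than from others. Animal 33 lay inside the range of the vehicle animals for 31.5% of the called transcripts and animal 34 for 22.1%, whereas animals 35, 36 and 37 did so for 4.95%, 4.84% and 4.37%. Among the vehicle animals, 31 and 32 lay inside the range of the low-dose animals for 20.6% and 18.0%, and 58, 59 and 60 for 13.3%, 13.8% and 14.0%. These shares use the transcripts called in the same animals and are descriptions.

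A list that these 10 animals did not choose gave a similar order. The high dose at 33 h changed 9701 transcripts (49.2% of those tested) against the vehicle animals of that time, and 8705 of them, 4311 raised and 4394 lowered, averaged a log2 CPM of 1 or more. The response score of an animal is its mean log2 difference from the 9 h vehicle animals over these 8705 transcripts, with the sign turned for those lowered at 33 h. It was 0.123 (33), 0.126 (34), 0.316 (35), 0.346 (36) and 0.336 (37) in the low-dose animals, with a mean of 0.249 ± 0.114 (SD, n = 5). The vehicle animals scored 0.065 (31), 0.026 (32), -0.013 (58), -0.049 (59) and -0.029 (60). All low-dose animals lay above all vehicle animals, and the distance between animals 34 and 35 was larger than that between animals 34 and 31. For the transcripts lowered at 33 h alone, the mean log2 difference was -0.090 and -0.106 in animals 33 and 34 and -0.336, -0.358 and -0.374 in animals 35 to 37. For those raised at 33 h it was 0.157, 0.147, 0.295, 0.333 and 0.297 in animals 33 to 37.

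**Figure D5:**
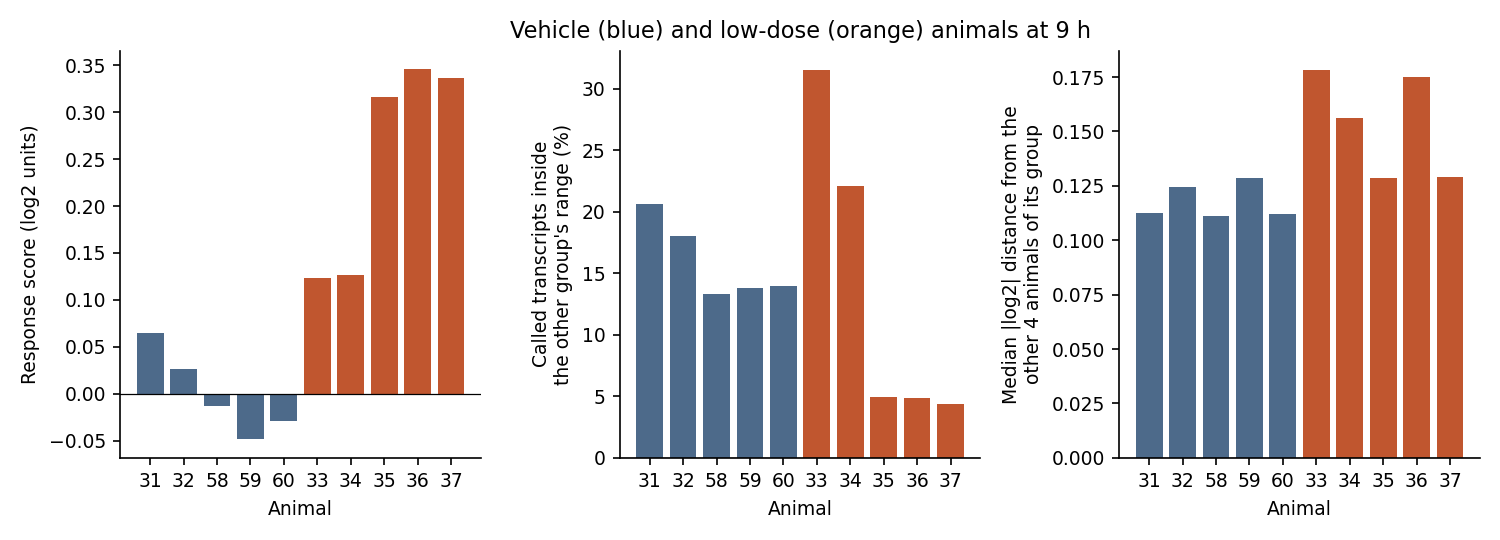
Values of each vehicle (blue) and low-dose (orange) animal at 9 h. Left, response score in log2 units over the 8705 transcripts changed by the high dose at 33 h, from 0.123 to 0.346 with the low dose and from -0.049 to 0.065 with vehicle. Middle, percent of called transcripts for which the animal lies inside the other group's range, highest in animal 33 (31.5%). Right, median log2 distance from the other 4 animals of its group, TMM-scaled.

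The number of transcripts called followed which animals were compared. Leaving out animal 33 or 34 raised the number to 5656 and 4997, and leaving out animal 35, 36 or 37 lowered it to 2751, 2913 and 2852. Leaving out 1 vehicle animal gave 3145 to 3993. With vehicle animals 31 and 32 as the only controls, 45 transcripts were called, and with 58, 59 and 60 as the only controls 2907. These fits had fewer controls, so that the number of animals and the choice of animals cannot be told apart.

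Single animals rarely stood alone at higher levels. Transcripts at lower levels, such as ENSCPOT00000003291.3 with 292 CPM in animal 34, were not counted. Of 11645 transcripts that averaged a log2 CPM of 3 or more, 8 had 1 animal more than 8-fold below the other 9, and 0 had 1 animal that far above them. The 8 transcripts were spread over animals 32, 33, 34, 35, 36 and 60 with 1 or 2 each, and 1 of them was called. A transcript of 4049 bases had 2 counts in animal 35 against 282 to 905 in the other 9. One of 3891 bases had 0 counts in vehicle animal 32 against 255 to 752 elsewhere, and one of 2162 bases had 14 counts in vehicle animal 60 against 366 to 1133. Transcripts of 930 and 2481 bases had 4 counts each in animal 36. The one of 2481 bases was called (log2 fold change -1.87, edgeR adjusted p = 0.0794) but no longer in 9 of 16 alternatives. In a transcript of 1959 bases, also among the largest SDs with vehicle, the vehicle animals differed in another way. It was at 3.39 and 3.76 CPM in vehicle animals 31 and 32, at 64.0, 71.2 and 60.2 CPM in 58, 59 and 60, and at 1.19 to 49.7 CPM with the low dose, and it was not called (log2 fold change -1.44, edgeR adjusted p = 0.409). The SD of log2 CPM was over 1 for 244 of the 15237 transcripts in the low-dose animals and for 229 in the vehicle animals, with 67 in both. Across transcripts the SDs of both groups had a Spearman correlation of 0.70 over all 19729, which is a description, since SDs of both groups depend on the level.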

How the data were processed

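Per the labels, kidney RNA was sequenced from 30 animals. The authors assigned reads with kallisto (version 0.42.4 in the submitters' processing notes) to guinea pig transcripts from Ensembl and deposited, per animal and transcript, an unnormalized estimated count, a TPM value scaled to a fixed total, and a length. The transcriptome release is not given in the sources used here. The study's test, Sleuth, was not used.

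Estimated counts were rounded. In R 4.3.3, transcripts were filtered with edgeR 4.0.16 (filterByExpr, 6 groups), leaving 19729, scaled by TMM and tested with glmQLFit and glmQLFTest on the 10 animals without covariates, with a threshold of 0.1 on the Benjamini-Hochberg adjusted p. CPM used the TMM-scaled total. Log2 CPM used a prior count of 2. Measures per animal used transcripts that averaged a log2 CPM of 1 or more and two-sided exact permutation tests (threshold 0.05). Scripts were tested on simulated data. Every pair of the 10 animals differed by at least 17.0 in chi-square per degree of freedom, so none of these 10 libraries looked deposited more than once.

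Transcripts were named by rule: the 6 largest rises and 6 largest falls among called transcripts without overlap (mean log2 CPM of 1 or more), the 2 largest each way below 1, the 3 called with the highest CPM each way, the 4 smallest p-values, the 3 largest SDs in each group (mean log2 CPM of 3 or more), and the transcript with the largest share of counts. Identifiers are printed for 4. The 8-fold gaps of single animals were counted after values had been seen. Planned gene lists and marker lists could not be used, because no transcript matched a symbol. Comparisons, lists and tests were chosen with earlier results of these data known. Alternatives were DESeq2 1.42.0, limma 3.58.1 on log2 CPM and log2 TPM (pseudocount 0.5), other scalings and filters, an adjusted p of 0.05, all 30 animals in one fit, subsets of the vehicle animals and leaving out each animal.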

Additional observations from a re-analysis of the deposited data

Results flagged for a closer look

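Among 56 sets of 5 values within a group, 9 held 1 value far from the other 4 by Dixon's criterion. The sets were measures per animal and the transcripts named for the largest changes without overlap (mean log2 CPM of 1 or more), SD or share of the counts. Transcripts named only for low level, high CPM or a small p were not checked. The criterion passes about 1 in 20 sets by chance, but that share does not apply to the named transcripts, several of which were chosen for a large SD, a large change or a large share of the counts. In vehicle animal 59 the leading transcript took 13.7% of the counts, against 4.76% in the next animal. This was ENSCPOT00000025542.2, whose level of 161000 CPM against 51400 CPM is the same observation. In vehicle animal 58 the slope of log2 CPM on log2 length was -0.02451, and the next lowest vehicle animal was at -0.00136. In low-dose animal 34, ENSCPOT00000003291.3 was at 292 CPM against 10.1 CPM in the next animal, ENSCPOT00000008461.3 at 39.4 CPM against 10 CPM, and the transcript of 3765 bases at 10.5 CPM against 3.24 CPM. In vehicle animal 60 the transcript of 2481 bases was at 33.3 CPM against 24.5 CPM, and that of 2162 bases at 0.512 CPM against 29.9 CPM. In vehicle animal 32 the transcript of 3891 bases was at 0 CPM, and the next animal was at 16.5 CPM. What these values come from was not tested.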

How the results depend on the processing

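Under DESeq2, RLE scaling, limma on log2 CPM, offsets for effective length and the other filters run, 4138 to 5420 transcripts were called, and 89.5% to 99.5% of the 4550 were kept. DESeq2 called 5420, and gave no adjusted p for 116. With log2 TPM, 977 were called lower, the median called change was 0.473, the length slope differed by -0.00133 and the distance by -0.00484, and the log2 SD ratio was -0.0117. With the total count alone, 859 were called lower, the median was 0.485, the distance differed by 0.00158, and the log2 SD ratio was -0.0273. Without the filter on low counts, 2.99% were called in the lowest level bin and 9.67% in the shortest length bin, and with all 30 animals in one fit 9.35% in the lowest level bin. At an adjusted p of 0.05, 2743 were called (1459 higher, 1284 lower, 392 at least 2-fold), with a median of 0.479 and with 2.05% and 30.2% called in the lowest and highest level bins and 10.7% and 13.6% in the shortest and longest length bins. With vehicle animals 31 and 32 only, 45 were called (41 higher, 4 lower, 37 at least 2-fold), with a median of 1.58 and shares of 0.0315%, 2.33%, 0.47% and 0.235% in the same bins. With vehicle animals 58 to 60 only, 2907 were called, 1286 of them lower, with a median of 0.563, 3.62% and 28.8% in the lowest and highest level bins and 9.87% in the shortest length bin. The distance then differed by 0.029 (exact permutation p = 0.0536), the log2 SD ratio was 0.422, and the transcript of 3891 bases, never called, had a log2 fold change of -0.0726. Above a mean log2 CPM of 4 the log2 SD ratio was 0.426. What causes these shifts was not tested.

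Leaving out each animal in turn gave 2751 to 5656 called transcripts, 1476 to 2790 higher, 1275 to 2866 lower and 382 to 833 changed at least 2-fold. The median called change was 0.434 to 0.473, and the shares called were 2.80% to 7.06% and 29.0% to 56.0% in the lowest and highest level bins and 11.0% to 21.8% and 13.6% to 28.0% in the shortest and longest length bins. The expression slope differed by -0.0288 to -0.0166, the distance by 0.0291 to 0.0492 (without animal 31, 33, 58 or 60 the exact permutation p was 0.0635 to 0.0794 and no longer past 0.05), and the log2 SD ratio was 0.120 to 0.316. The log2 fold changes of the transcripts of 3891 and 2162 bases, never called, ranged from -0.132 to 0.349 and from -0.309 to 0.174.

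No paired analysis was possible because the animal numbers are not shared between the groups.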
